A study of Mus musculus with 6 samples.

Results

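RNA polymerases I and III transcribe the RNAs from which ribosomes and tRNAs are made, and 41 genes of their machinery were followed here in mouse macrophages given a MEK inhibitor. The 41 genes were found in the deposited counts of 25044 genes through their Ensembl identifiers, and all of them had at least the 60 counts over 6 libraries that were required. They comprise 13 genes of the Pol I system, 21 of the Pol III system and 7 that encode subunits built into both enzymes. Their counts over the 6 libraries ran from 187 for Polr3g to 8240 for Ubtf.

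Peritoneal macrophages came from wild type C57BL/6 mice aged 8 weeks that had been given thioglycollate 3 days earlier. Adherent cells were kept in culture for 24 h and treated for 2 h with either DMSO as the vehicle or 100 nM trametinib, which inhibits the kinases MEK1 and MEK2 upstream of ERK. Both groups then received LPS, a bacterial activator of TLR4, at 100 ng/ml for 12 h, and each group has 3 libraries made from total RNA depleted of ribosomal RNA. No culture without LPS is present, so each difference below is one between LPS-treated cells with and without the inhibitor. The labels give 3 mice for the 6 libraries and do not tie a replicate to an animal, so p-values measure only the spread between these samples. In such bulk RNA, fewer cells of a type and less RNA per cell cannot be told apart.

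Pol I transcribes only the ribosomal RNA precursor, from tandem repeats in the nucleolus. Its promoter is bound by UBF (encoded by Ubtf) and by the SL1 complex of TBP with the Taf1a to Taf1d products, and Pol I joins them when it carries the initiation factor TIF-IA (encoded by Rrn3). Pol III makes 5S rRNA, tRNAs and other short RNAs, using TFIIIA and TFIIIC to find internal promoters and TFIIIB, which contains Brf1 or Brf2 with Bdp1 and TBP, to place the enzyme, while Maf1 represses it. In other cells ERK is known to phosphorylate TIF-IA, UBF and Brf1, changes that an mRNA measurement does not see.

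The libraries held 17453778 to 19648467 counts. Vehicle replicate 3 was unlike its group. Its score on principal component 1 (68.8% of the variance) was −16.2, where vehicle replicates 1 and 2 scored −39.3 and −38.1 and the trametinib libraries scored between 26.4 and 35.5. The summed level of 6 transcripts of ERK output (Dusp6, Spry2, Spred2, Egr1, Etv5 and Phlda1) was 14.3 CPM in vehicle replicate 3, up to 61.0 in the other vehicle libraries and 0.827 to 0.913 with trametinib. CPM are counts relative to the scaled library size. The 8 macrophage markers summed to 15773 to 17553 CPM in the vehicle and 14758 to 16392 in the trametinib libraries, most of it Lyz2. In edgeR 2 of the 8 fell (Adgre1 to 0.532 of its vehicle level, adjusted p 0.000502, and Itgam to 0.446, 0.0437) and 2 rose (Mertk to 2.22 times, 0.000412, and Cd14 to 1.19 times, 0.0214). Adgre1 and Mertk passed under all 13 alternative settings, while Itgam and Cd14 lost their calls on removal of vehicle replicate 1, vehicle replicate 2, trametinib replicate 1 or trametinib replicate 2 (up to 0.134 and 0.100), and Itgam also on removal of trametinib replicate 3 and without the filter. The part of these marker shifts in the results below was not tested. The 6 neutrophil markers summed to 9.67 to 21.2 and 10.0 to 17.4 CPM, with Retnlg at 0 in every library, and the markers of B cells, of T and NK cells, of mesothelium and fibroblasts and of mast cells and eosinophils each summed to at most 1.99 CPM, with Msln and Mcpt4 at 0.

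In a comparison of trametinib with vehicle over 11286 genes by the quasi-likelihood test of edgeR, a gene was said to fall or rise at a Benjamini-Hochberg adjusted p under 0.05. By that rule 11 of the 41 genes (26.8%) fell and 2 (4.88%) rose, and 28 did not pass. Of all genes tested, 18.4% fell and 15.8% rose. The median log2 fold change, trametinib over vehicle, was −0.20 over the 41 genes and −0.0053 over all genes tested, and 32 of the 41 values were below 0, against 50.8% of all genes tested. The 3 classes differed in their counts. In the Pol I class 6 of 13 (46.2%) fell and 0 rose, in the Pol III class 4 of 21 (19.0%) fell and 2 (9.52%) rose, and of the shared subunits 1 of 7 (14.3%) fell and 0 rose. The counts of 0 were also 0 at an unadjusted p under 0.05 in edgeR and in DESeq2 and limma-voom. The Pol III and shared counts of falls were thus close to the share among all genes, and the Pol I count lay above it; the difference between classes was not tested.

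**Figure D1:**
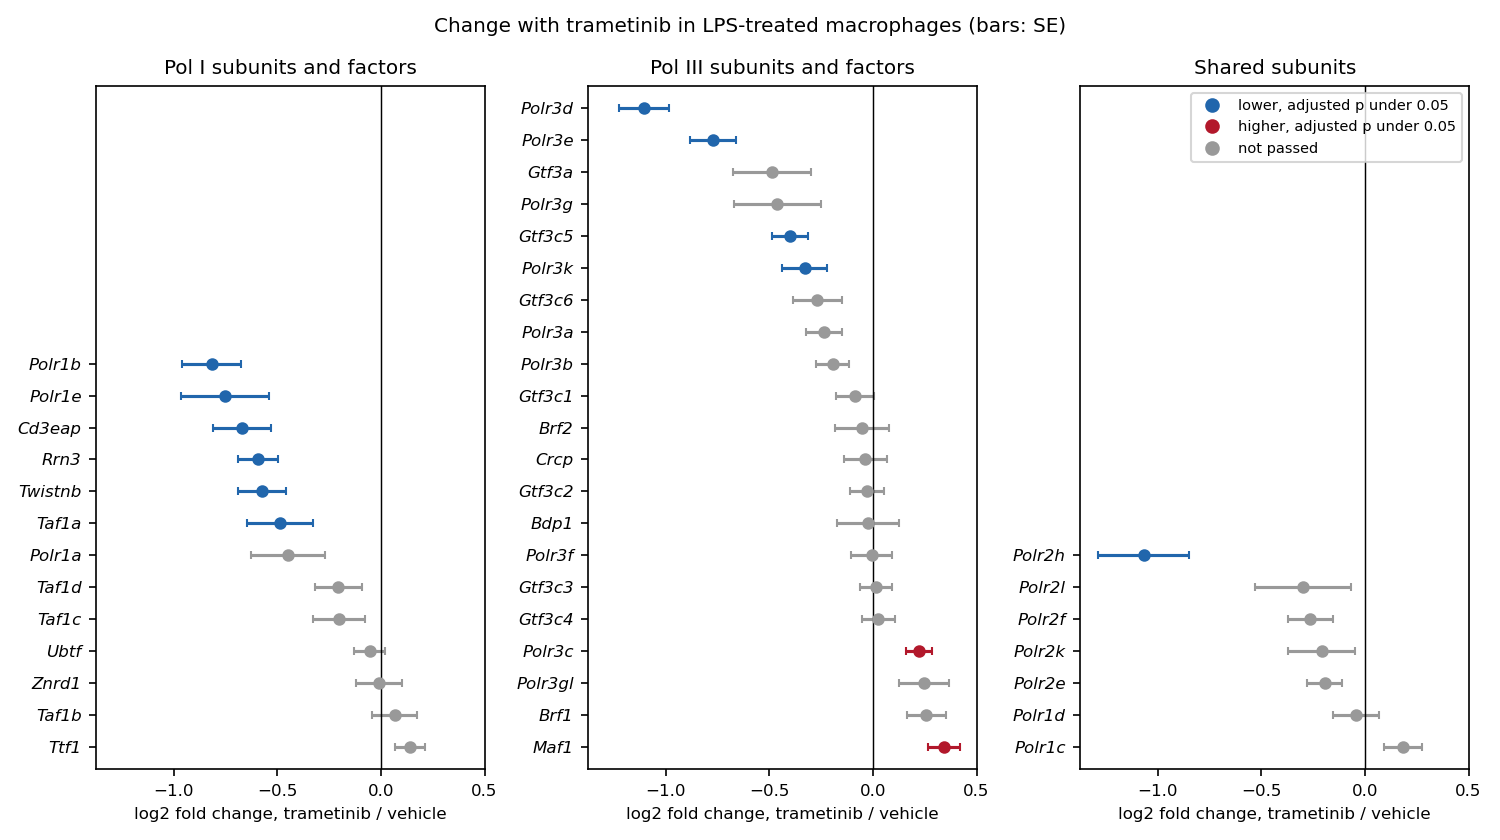
Log2 fold change of each of the 41 genes, trametinib over vehicle, on the horizontal axis, with bars of 1 standard error, 3 libraries per group, and genes grouped by class. The values run from −1.10 for Polr3d to 0.34 for Maf1, and 32 of the 41 lie left of 0.

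The groups did not overlap in 21 of the 41 genes: the 3 trametinib libraries lay below all 3 vehicle libraries in 16 and above them in 5. Among all genes tested the shares were 25.9% below and 23.4% above. Without vehicle replicate 3, 14 of the 41 genes fell and 4 rose, where 21.4% of 11442 genes fell and 19.3% rose. With the replicate number as a block, 13 fell and 3 rose, where 22.4% of all genes fell and 20.5% rose. On removal of vehicle replicate 1, vehicle replicate 2, trametinib replicate 1 or trametinib replicate 2, 8 fell and 1 rose each time, with 4 of the 13 Pol I genes among those that fell. DESeq2 gave 9 and 1, of which 5 that fell were Pol I genes. For these removals and for DESeq2 the shares among all genes were not counted. Whether calls were lost over all genes alike was thus not seen. Of the 13 genes that passed, 9 passed in the same direction under all 13 alternative settings: Polr1b, Twistnb, Cd3eap, Rrn3, Polr3d, Polr3e, Gtf3c5, Maf1 and Polr2h. The other 4 were Polr1e, Taf1a, Polr3c and Polr3k, and each lost its call in some setting. How many of all genes tested kept their calls in every setting was not counted, and all settings refit the same libraries.

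**Figure D2:**
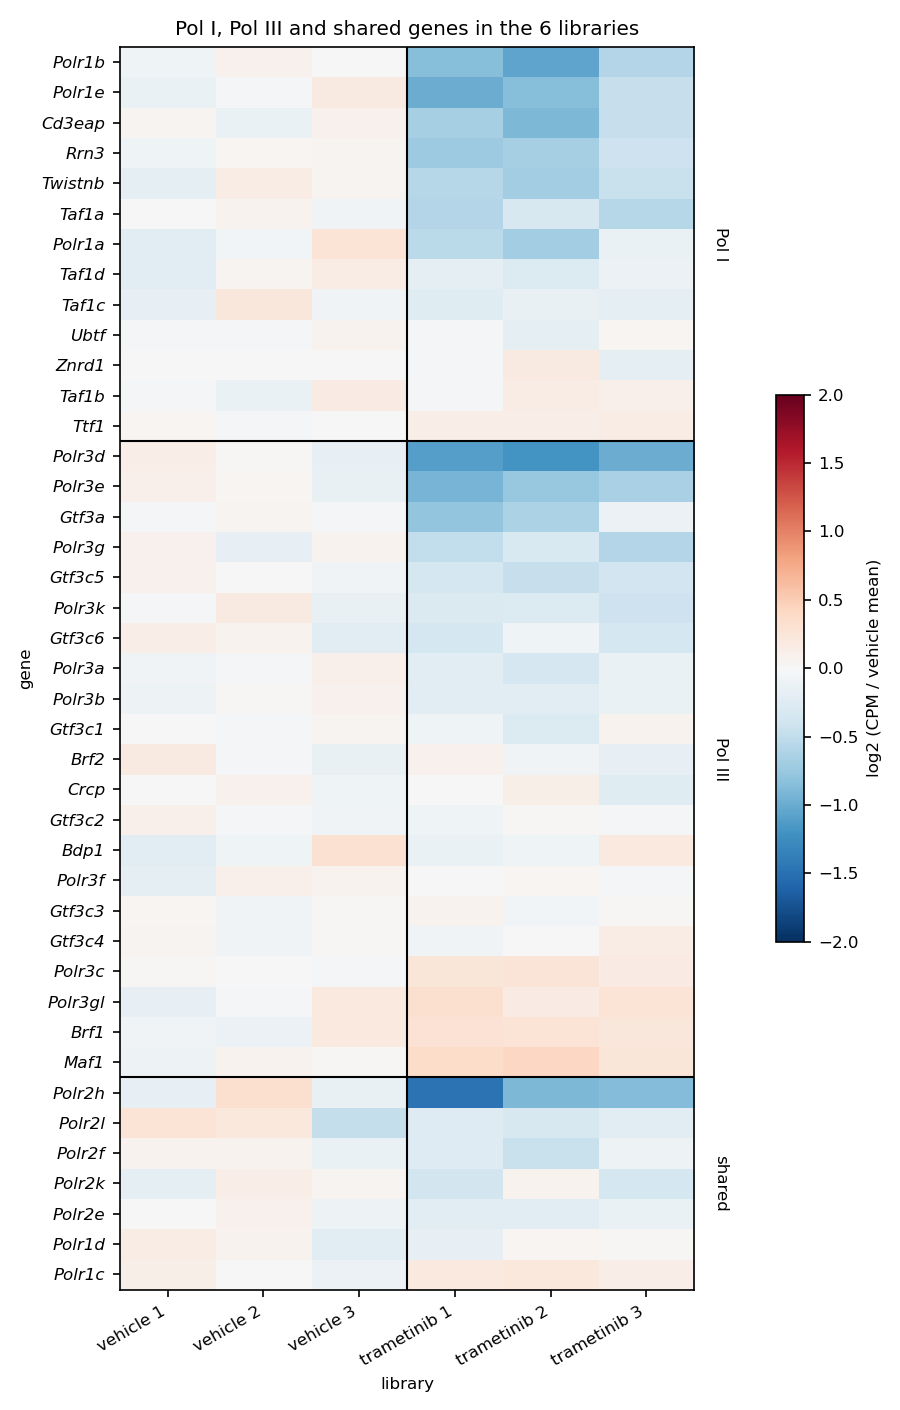
Each row is 1 of the 41 genes and each column 1 library, coloured by the log2 ratio of its CPM to the mean of the 3 vehicle libraries. Blue cells gather in the trametinib columns of Polr3d, Polr2h, Polr1b and Rrn3, and vehicle replicate 3 is the highest library for Polr1a and Bdp1.

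The enhancer-box hexamer CACGTG, the core of the sites that MYC, MAX and their relatives bind, was looked for in the promoters. The search was chosen after the initiation factor gene Rrn3 and other genes of the 41 were seen to fall. Of the 41, 28 did not pass and 2 rose, and whether genes changed jointly was not tested. The hexamer reads the same on both strands. RefSeq promoter windows, from 250 bases before to 50 bases after the start on GRCm38.p6, were matched for 34 of the 41 genes. It occurred in 7 of them (20.6%): Rrn3, Cd3eap, Polr3c, Polr3e, Polr3gl, Gtf3c6 and Polr2h. It occurred in 8.09% of 27025 genes with a window and in 12.1% of the 9031 tested genes with one. Of the 10 matched genes that fell with trametinib, 4 held it (Rrn3, Cd3eap, Polr3e and Polr2h), against 15.5% of all tested genes that fell, and it also stood before Polr3c, which rose. Rrn3, which prompted the search, is among those 4. Within 100 bases before the start the hexamer was found in 2 of the 34 windows (5.88%), against 5.79% of the tested genes. Of the 10 that fell 1 held it there, against 7.14% of all tested genes that fell. That stretch leaves out copies after the start, which began 6 bases after it in Polr3e, 21 in Cd3eap and 24 in Polr2h. How many of all genes hold a copy after the start was not counted. A match is a description of the sequence and no evidence of binding.

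Rrn3 is shown because it fell and holds 2 copies of the hexamer, Cd3eap because it also fell and holds 1 copy in the bases shown, and Polr3c because it rose and holds 1. The 250 bases before each start are printed from 5′ to 3′ on the strand of the gene, with the hexamer in capitals. They lie at chr16:13780449-13780698 on the plus strand, chr7:19359484-19359733 on the minus strand and chr3:96727440-96727689 on the minus strand. The Polr3c gene of GENCODE M21 begins at 96727628 on the minus strand, so part of its printed bases lies inside that gene model. All distances to a start follow the RefSeq windows.
Rrn3: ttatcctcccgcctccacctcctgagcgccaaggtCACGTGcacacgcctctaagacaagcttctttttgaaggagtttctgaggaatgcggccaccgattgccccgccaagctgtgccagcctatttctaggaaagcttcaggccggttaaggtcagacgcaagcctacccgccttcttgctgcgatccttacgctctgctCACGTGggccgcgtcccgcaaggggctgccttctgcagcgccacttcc
Cd3eap: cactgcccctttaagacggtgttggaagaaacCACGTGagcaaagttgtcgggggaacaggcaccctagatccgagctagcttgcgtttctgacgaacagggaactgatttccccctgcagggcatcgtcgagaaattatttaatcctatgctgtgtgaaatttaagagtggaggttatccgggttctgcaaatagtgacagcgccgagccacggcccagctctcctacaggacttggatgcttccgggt
Polr3c: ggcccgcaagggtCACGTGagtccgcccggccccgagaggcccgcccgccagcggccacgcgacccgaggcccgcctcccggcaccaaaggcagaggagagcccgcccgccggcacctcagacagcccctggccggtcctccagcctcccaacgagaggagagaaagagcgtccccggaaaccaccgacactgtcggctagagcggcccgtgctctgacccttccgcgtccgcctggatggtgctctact
The copies began 215 and 48 bases before the start in Rrn3, 218 bases before it in Cd3eap and 237 bases before it in Polr3c. Cd3eap had a further copy 21 bases after the start.

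Pol I itself was represented by 6 genes for subunits found in no other polymerase, and 4 of the 6 fell, where 18.4% of all genes tested fell. Polr1b, the gene of the second largest subunit (ENSMUSG00000027395, mm10 chromosome 2, 129100995 to 129126594), was at 8.13, 9.09 and 8.59 CPM in vehicle replicates 1 to 3 and at 4.79, 4.14 and 5.73 CPM in trametinib replicates 1 to 3. The groups did not overlap, and the highest trametinib value was that of replicate 3. The mean fell from 8.60 ± 0.481 to 4.89 ± 0.803 CPM (mean ± SD, n = 3 per group), a log2 fold change of −0.82 (SE 0.14, edgeR adjusted p 0.00304), the lowest of the Pol I class.

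Cd3eap and Polr1e encode the 2 proteins of a Pol I dimer that resembles parts of TFIIF and TFIIE. Cd3eap (ENSMUSG00000047649, chromosome 7, 19356014 to 19359483) was at 9.36, 8.25 and 9.61 CPM with vehicle and at 5.73, 4.83 and 6.57 CPM with trametinib. All its trametinib libraries lay below the lowest vehicle library, and it fell by 0.67 on the log2 scale (SE 0.14, edgeR adjusted p 0.00685). Polr1e was at 2.58, 2.73 and 3.19 CPM with vehicle and at 1.42, 1.56 and 2.06 CPM with trametinib. It fell by 0.75 (SE 0.21, edgeR adjusted p 0.0246) from only 244 counts over the 6 libraries. Its adjusted p was 0.0660 with DESeq2, 0.0504 without vehicle replicate 1, 0.0575 without vehicle replicate 2, 0.0968 without trametinib replicate 1 and 0.0836 without trametinib replicate 2.

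Twistnb, which encodes a protein of the stalk that meets the initiation factor, was at 16.9, 21.6 and 20.1 CPM with vehicle and at 13.1, 12.0 and 14.3 CPM with trametinib. Its groups did not overlap, and it fell by 0.57 on the log2 scale (SE 0.12, edgeR adjusted p 0.00553). The largest subunit gene, Polr1a, was at 31.4, 35.4 and 44.6 CPM with vehicle and at 25.2, 22.8 and 33.6 CPM with trametinib, so trametinib replicate 3 lay above vehicle replicate 1. Its log2 fold change of −0.45 (SE 0.18) did not pass (edgeR adjusted p 0.0906). In both groups replicate 3 was the highest library, each same-numbered trametinib library was the lower one, and the adjusted p was 0.00462 with the replicate block, 0.0434 with DESeq2 and 0.0207 without trametinib replicate 3. Znrd1, which encodes the small zinc-ribbon subunit that trims the transcript's end, was at 13.5, 13.6 and 13.6 CPM with vehicle and at 13.2, 15.4 and 11.8 CPM with trametinib (log2 fold change −0.01, SE 0.11).

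**Figure D3:**
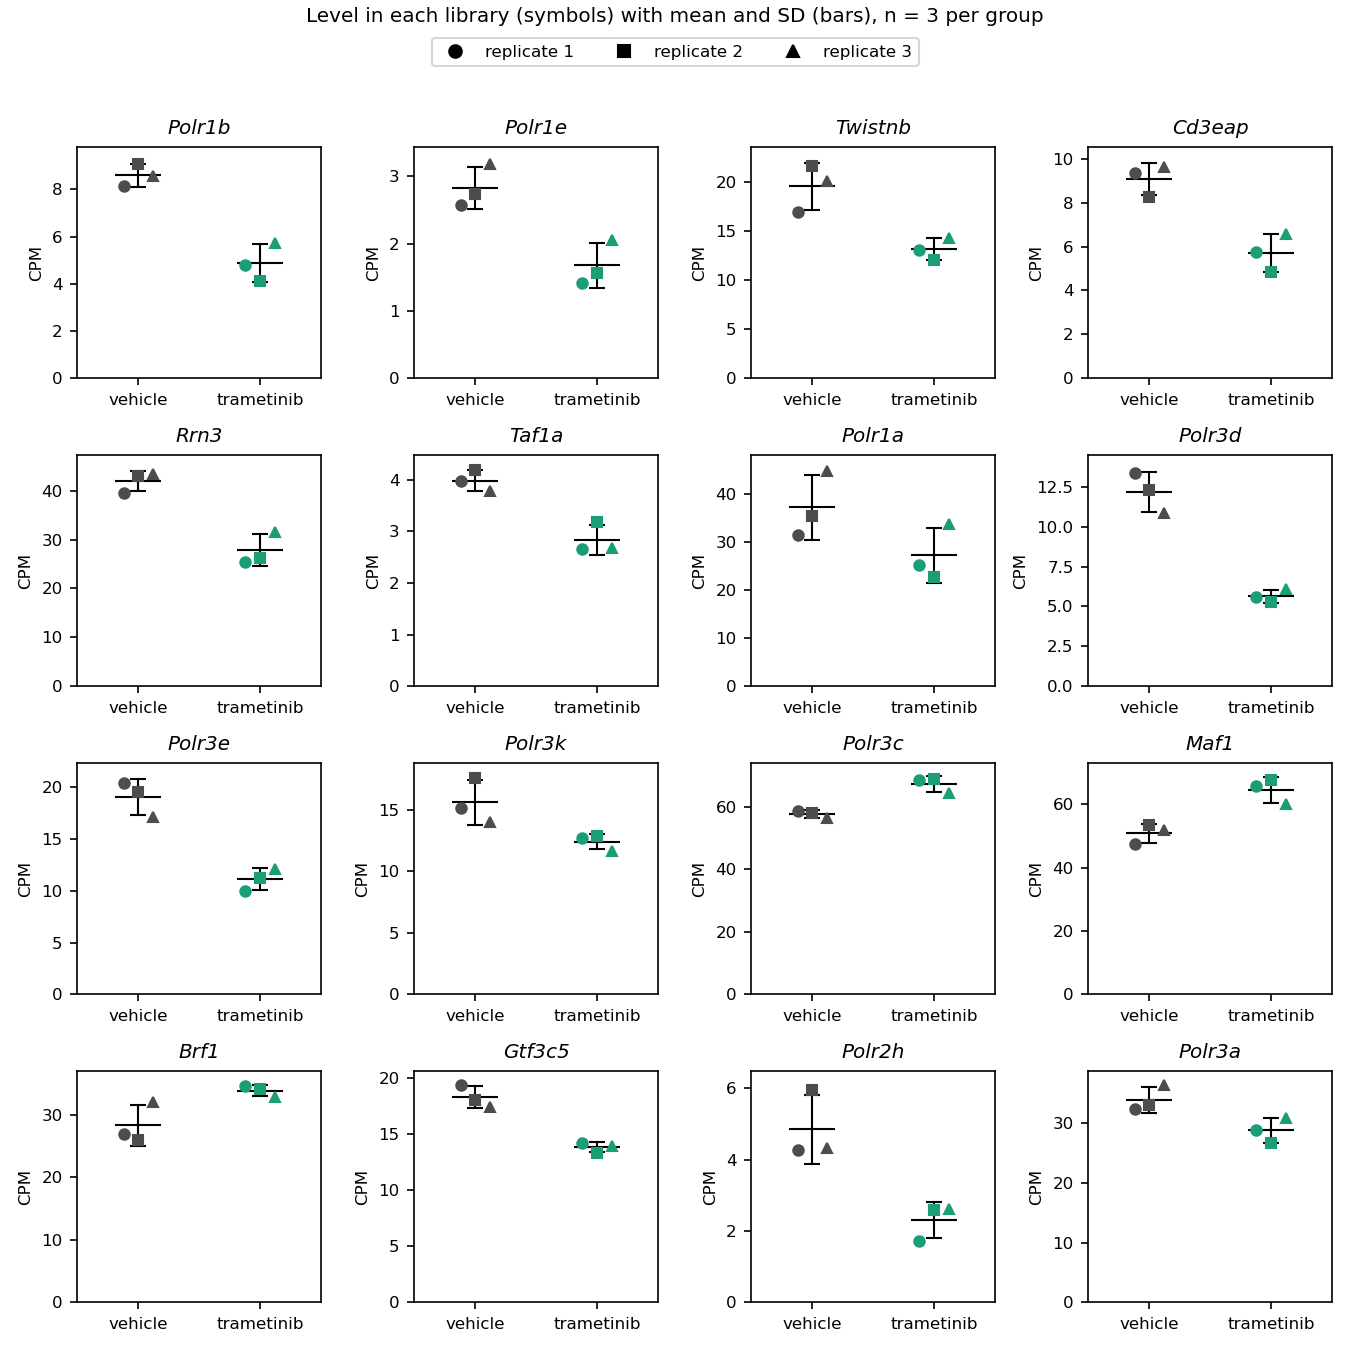
CPM of single genes in each library, with replicates as symbols and the mean and SD of each group of 3 as bars, each panel on its own axis from 0. The points of Polr1b, Rrn3, Polr3d and Polr2h separate by group, and those of Polr1a overlap, with replicate 3 highest in both groups.

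The factors that bring Pol I to its promoter divided. Rrn3 (ENSMUSG00000022682, chromosome 16, 13780708 to 13814839), the initiation factor gene, was at 39.5, 43.0 and 43.4 CPM with vehicle and at 25.5, 26.3 and 31.6 CPM with trametinib. Every trametinib library lay below every vehicle library, and the mean fell from 42.0 ± 2.12 to 27.8 ± 3.30 CPM (mean ± SD, n = 3 per group), by 0.59 on the log2 scale (SE 0.10, edgeR adjusted p 0.00214). Taf1a, an SL1 subunit gene, was at 3.98, 4.18 and 3.78 CPM with vehicle and at 2.66, 3.17 and 2.67 CPM with trametinib. It fell by 0.49 (SE 0.16, edgeR adjusted p 0.0411), with no overlap between groups. The adjusted p rose to 0.0681 without the filter on low counts, to 0.154 with DESeq2, to 0.109 or 0.126 on leaving out vehicle replicate 1 or 2, and to 0.132, 0.0515 or 0.0932 on leaving out trametinib replicate 1, 2 or 3.

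The other SL1 genes did not pass. Taf1b had a log2 fold change of 0.07, Taf1c of −0.20 and Taf1d of −0.21, and the groups overlapped in all 3. Taf1d hosts snoRNAs, and the rule for counting reads in overlapping genes is not given in the sources used here. Ubtf, which encodes the factor that keeps ribosomal DNA open, was at 75.8, 75.7 and 82.1 CPM with vehicle and at 76.7, 68.9 and 79.5 CPM with trametinib (log2 fold change −0.05, SE 0.07, edgeR adjusted p 0.603). Ttf1, the gene of the factor that ends Pol I transcription, had the highest log2 fold change of the Pol I class. It was at 21.3, 20.3 and 20.8 CPM with vehicle and at 22.9, 22.9 and 23.0 CPM with trametinib, groups that did not overlap and whose log2 difference of 0.14 (SE 0.07) did not pass (edgeR adjusted p 0.167). Summed over the 13 genes, the Pol I class was at 256, 272 and 289 CPM with vehicle and at 224, 216 and 246 CPM with trametinib.

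Of 10 genes for subunits proper to Pol III, 3 fell and 1 rose, near the shares of 18.4% and 15.8% among all genes tested. Polr3d had the lowest log2 fold change of all 41 genes, and it encodes a protein of the Pol III dimer that corresponds to the Pol I dimer of Cd3eap and Polr1e (ENSMUSG00000000776, chromosome 14, 70438757 to 70443447). It was at 13.3, 12.3 and 10.9 CPM with vehicle and at 5.61, 5.26 and 6.07 CPM with trametinib. The highest trametinib library was well below the lowest vehicle library. The mean fell from 12.2 ± 1.25 to 5.65 ± 0.403 CPM (mean ± SD, n = 3 per group), to 0.465 of the vehicle level, with a log2 fold change of −1.10 (SE 0.12, edgeR adjusted p 0.00046).

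Polr3e, whose product is the partner of the Polr3d product, was at 20.4, 19.5 and 17.1 CPM with vehicle and at 9.99, 11.2 and 12.1 CPM with trametinib. It fell by 0.77 on the log2 scale (SE 0.11, edgeR adjusted p 0.0012). In both of these genes vehicle replicate 3 was the lowest vehicle library, and without it the log2 fold changes were −1.18 and −0.84. Polr3k, the gene of the zinc-ribbon subunit used in termination, was at 15.1, 17.6 and 14.0 CPM with vehicle and at 12.7, 12.8 and 11.7 CPM with trametinib. It fell by 0.33 (SE 0.11, edgeR adjusted p 0.0436). That adjusted p was 0.103 with DESeq2, 0.0503 with limma-voom, 0.0886 or 0.169 on leaving out vehicle replicate 1 or 2, and 0.103, 0.0873 or 0.109 on leaving out trametinib replicate 1, 2 or 3.

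Polr3c, which encodes a subunit of the heterotrimer that contacts TFIIIB, moved the other way. It was at 58.7, 58.0 and 56.4 CPM with vehicle and at 68.6, 69.0 and 64.3 CPM with trametinib, with every trametinib library the higher. It rose by 0.22 on the log2 scale (SE 0.06, edgeR adjusted p 0.025), and the adjusted p was 0.0552 with DESeq2, 0.0719 or 0.0792 on leaving out vehicle replicate 1 or 2, and 0.101 or 0.0756 on leaving out trametinib replicate 1 or 2. The heterotrimer's other members did not pass: Polr3f had a log2 fold change of −0.01, and its remaining position is filled by the product of either Polr3g or Polr3gl.

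Polr3g and Polr3gl are paralogs that make alternative forms of Pol III, and Polr3g is best known from stem cells and tumours. Polr3g was at 2.13, 1.78 and 2.11 CPM with vehicle and at 1.42, 1.61 and 1.34 CPM with trametinib, from the lowest number of counts in the set. Its groups did not overlap, and its log2 fold change of −0.46 (SE 0.21) did not pass (edgeR adjusted p 0.122). Polr3gl was at 7.57, 8.25 and 9.67 CPM with vehicle and at 10.6, 9.45 and 10.2 CPM with trametinib (log2 fold change 0.25, SE 0.12, edgeR adjusted p 0.15), with vehicle replicate 3 above trametinib replicate 2. Without vehicle replicate 3 its adjusted p was 0.0411. Counted per kb of exon, Polr3g made up 10.3%, 8.07% and 8.12% of the pair's sum in the vehicle libraries and 5.16%, 6.47% and 5.03% in the trametinib libraries. These shares did not overlap between groups, with means of 8.81 ± 1.25% and 5.55 ± 0.797% (SD, n = 3 per group), and were not tested.

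The 2 largest Pol III subunits, which form the active centre, had small differences. Polr3a was at 32.3, 33.1 and 36.4 CPM with vehicle and at 28.9, 26.7 and 30.9 CPM with trametinib, a log2 fold change of −0.23 (SE 0.09, edgeR adjusted p 0.0631). Its groups did not overlap, and it passed under the replicate block (0.0275) and without trametinib replicate 3 (0.0453). Polr3b had a log2 fold change of −0.19 (SE 0.08, edgeR adjusted p 0.0919). Crcp, a stalk subunit gene first described for a receptor of a neuropeptide, was at 28.4 ± 1.80 CPM with vehicle and 27.7 ± 3.45 CPM with trametinib (SD, n = 3 per group).

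Of the Pol I subunits, 5 were set beside their Pol III counterparts. In the dimer both enzymes had lower transcripts, with log2 fold changes of −0.67 for Cd3eap and −1.10 for Polr3d, and of −0.75 for Polr1e and −0.77 for Polr3e. The second largest subunits had −0.82 for Polr1b and −0.19 for Polr3b, the largest −0.45 for Polr1a and −0.23 for Polr3a, and the zinc-ribbon subunits −0.01 for Znrd1 and −0.33 for Polr3k. The differences within these pairs were not tested.

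**Figure D4:**
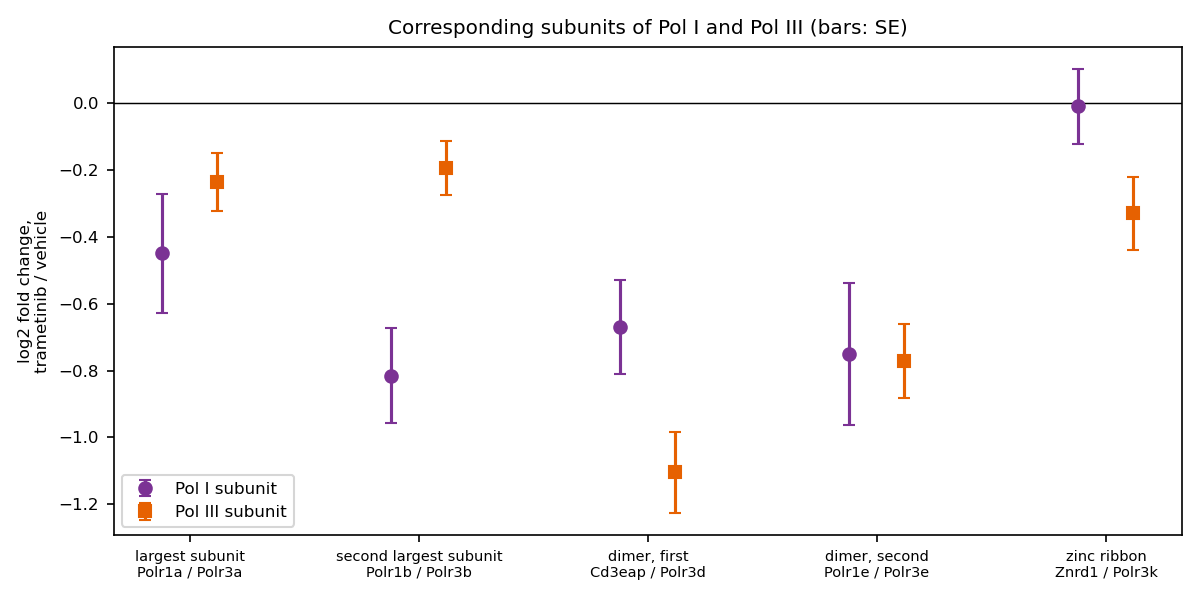
Log2 fold change of 5 Pol I subunit genes beside those of their Pol III counterparts, trametinib over vehicle, with bars of 1 standard error and 3 libraries per group. The dimer pairs lie between −0.67 and −1.10 in both enzymes, and each other pair has a gene nearer 0, Polr3a at −0.23, Polr3b at −0.19 and Znrd1 at −0.01.

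In TFIIIB and its repressor, 1 of 4 genes passed, and it rose, where 18.4% of all genes tested fell and 15.8% rose. Maf1, which encodes the repressor that binds Pol III when growth signals fall (ENSMUSG00000022553, chromosome 15, 76351294 to 76354380), was at 47.6, 53.4 and 51.8 CPM with vehicle and at 66.0, 67.7 and 60.0 CPM with trametinib. All trametinib libraries lay above all vehicle libraries. The mean rose from 51.0 ± 2.98 to 64.6 ± 4.05 CPM (mean ± SD, n = 3 per group), by 0.34 on the log2 scale (SE 0.08, edgeR adjusted p 0.00902), the highest log2 fold change of the 41. Maf1 also had the highest level per length of the 41 genes, 21.1 CPM per kb of exon with vehicle and 26.8 with trametinib.

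Brf1, the TFIIIB gene used at tRNA and 5S genes, was at 26.9, 25.9 and 32.1 CPM with vehicle and at 34.5, 34.2 and 32.8 CPM with trametinib. The groups were separate by the small gap between vehicle replicate 3 and trametinib replicate 3. The log2 fold change of 0.26 (SE 0.09) did not pass (edgeR adjusted p 0.0622), and it passed with the replicate block (0.0485) and without vehicle replicate 3 (0.00467, log2 fold change 0.36). Brf2, its paralog at genes with external promoters such as U6, was at 8.30, 7.19 and 6.64 CPM with vehicle and at 7.80, 6.98 and 6.57 CPM with trametinib (log2 fold change −0.05, SE 0.13). Per kb of exon, Brf2 made up 33.4% to 42.8% of the pair's sum with vehicle and 32.7% to 35.4% with trametinib, ranges that overlapped. Bdp1, another TFIIIB gene, was at 41.3, 44.9 and 58.9 CPM with vehicle and at 43.4, 44.9 and 54.5 CPM with trametinib, with replicate 3 the highest library in both groups.

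Among the 7 genes of TFIIIA and TFIIIC, the factors that read internal promoters, 1 fell, near the share of 18.4% among all genes tested. Gtf3c5, which encodes a subunit of the TFIIIC module at the A box, was at 19.3, 18.1 and 17.4 CPM with vehicle and at 14.2, 13.3 and 14.0 CPM with trametinib. Its groups did not overlap, and it fell by 0.40 on the log2 scale (SE 0.09, edgeR adjusted p 0.00731). Gtf3a, the gene of TFIIIA, which acts at 5S genes, was at 4.76, 5.13 and 4.86 CPM with vehicle and at 2.84, 3.17 and 4.51 CPM with trametinib. Its groups did not overlap, and its log2 fold change of −0.49 (SE 0.19) did not pass (edgeR adjusted p 0.075), while without trametinib replicate 3 the adjusted p was 0.0138. Of its exon bases 59.1% are also exons of Mtif3 on the other strand. The strand setting of the counting is not given in the sources used here, so how reads from the shared bases were assigned is not known.

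The other TFIIIC genes lay near their vehicle level or did not pass. Gtf3c1, the gene of the largest subunit, which binds the B box, had a log2 fold change of −0.09 (SE 0.09), and Gtf3c2, Gtf3c3 and Gtf3c4 had −0.03, 0.01 and 0.03. Of the exon bases of Gtf3c2, 38.9% are shared with a gene model on the same strand. Gtf3c6 was at 22.6, 21.6 and 17.7 CPM with vehicle and at 16.0, 19.3 and 16.0 CPM with trametinib, a log2 fold change of −0.27 (edgeR adjusted p 0.113) that became −0.37 (0.0183) without vehicle replicate 3. Summed over the 21 genes, the Pol III class was at 528, 534 and 547 CPM with vehicle and at 522, 524 and 532 CPM with trametinib, and its median log2 fold change was −0.05. The 10 Pol III subunit genes summed to 222, 231 and 224 CPM with vehicle and to 210, 211 and 206 CPM with trametinib. Of their log2 fold changes 8 were below 0, with a median of −0.21. Medians were 0.12 for the 4 genes of TFIIIB and Maf1 and −0.09 for the 7 of TFIIIA and TFIIIC. In the Pol I class they were −0.62 for 6 subunit genes and −0.20 for 7 factor genes. These differences were not tested.

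Of the 7 shared subunits, Polr1c and Polr1d form the platform on which Pol I and Pol III assemble, and neither passed. Polr1c had the highest log2 fold change of the shared class, 0.18 (SE 0.09, edgeR adjusted p 0.156). It was at 15.4, 14.2 and 13.1 CPM with vehicle and at 16.4, 16.5 and 15.6 CPM with trametinib, with separate groups. Polr1d was at 22.2 ± 2.85 CPM with vehicle and 21.5 ± 1.66 CPM with trametinib (SD, n = 3 per group).

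The other 5 shared subunits are also part of Pol II, and 1 of them fell, near the share of 18.4% among all genes tested. Polr2h (ENSMUSG00000021018, chromosome 16, 20717665 to 20722267) was at 4.26, 5.97 and 4.32 CPM with vehicle and at 1.71, 2.58 and 2.62 CPM with trametinib. The groups did not overlap. The mean fell from 4.85 ± 0.969 to 2.30 ± 0.510 CPM (mean ± SD, n = 3 per group), by 1.07 on the log2 scale (SE 0.22, edgeR adjusted p 0.00633), from 387 counts over the 6 libraries. Polr2e and Polr2f had log2 fold changes of −0.19 and −0.26 with adjusted p of 0.103 and 0.0917, and without vehicle replicate 3 these became 0.0457 and 0.0383. Polr2k and Polr2l, the genes of the smallest subunits, had −0.21 and −0.30 with overlapping groups. Summed, the 7 shared genes were at 94.6, 96.1 and 82.5 CPM with vehicle and at 79.3, 82.9 and 85.4 CPM with trametinib, with vehicle replicate 3 inside the trametinib range. Another 8 Polr2 genes lie outside the shared subunits. Of these, 0 passed the edgeR test in either direction, where 18.4% of all genes tested fell and 15.8% rose. Of the 8, 0 had an unadjusted p under 0.05 and 0 passed with DESeq2 or limma-voom, and their median log2 fold change was −0.08. The difference from the shared subunits was not tested. Without vehicle replicate 3, Polr2a, the gene of the largest Pol II subunit, passed at an adjusted p of 0.0198 and a log2 fold change of 0.31.

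Per kb of exon, the set ranged in the vehicle libraries from 0.510 CPM per kb for Polr3g to 21.1 for Maf1. After Maf1 came Crcp at 17.9, Polr3c at 17.0, Znrd1 at 16.6 and Ubtf at 11.9. Rrn3 stood at 9.72 and went to 6.43 with trametinib. The large catalytic subunits were lower, with Polr3b at 6.25, Polr3a at 5.82, Polr1a at 3.13 and Polr1b at 1.48, and Polr1e at 0.727 was second lowest. These levels use the union of annotated exons as the length, so a gene with long exons of little use appears too low.

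**Figure D5:**
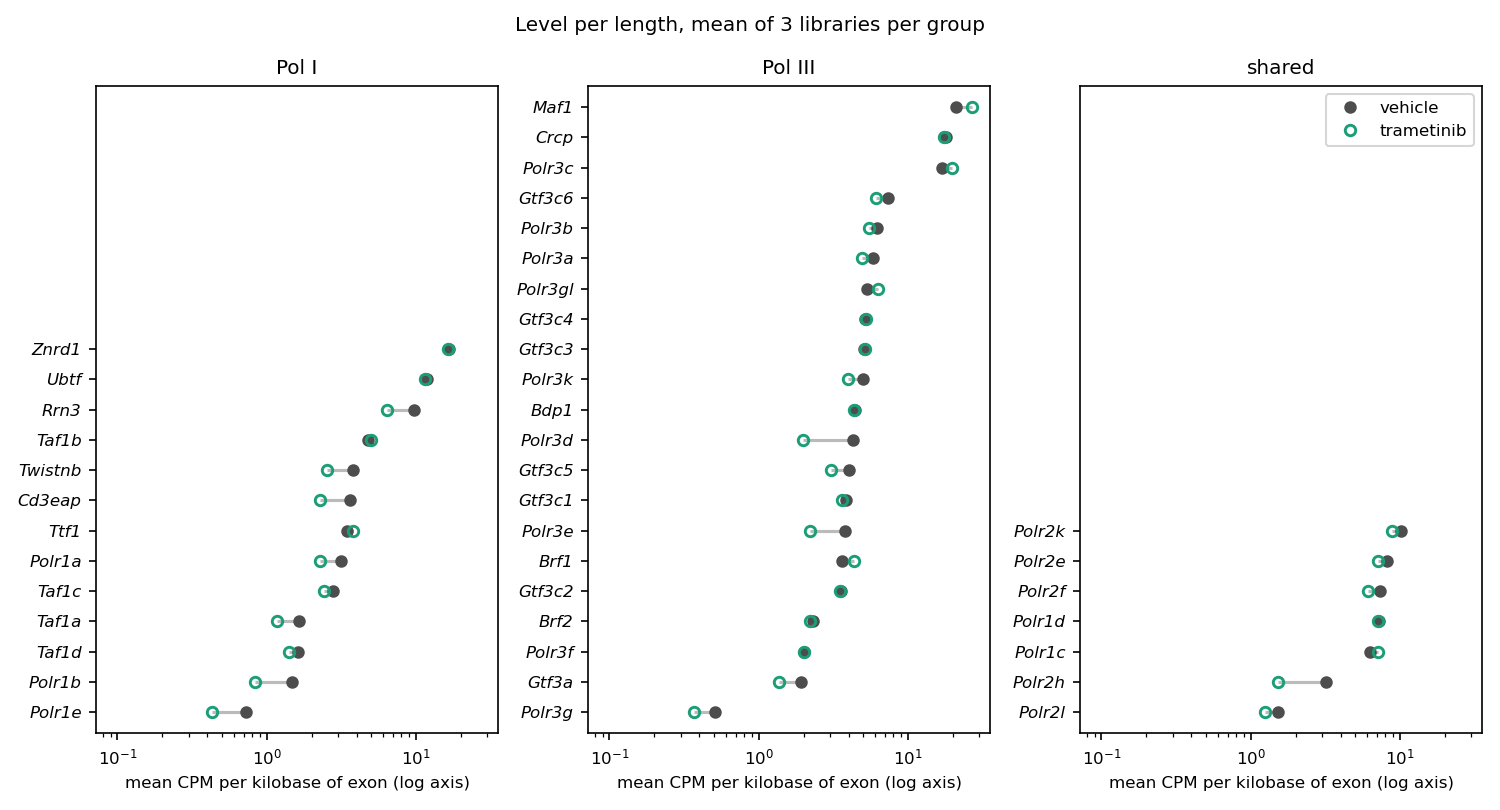
Mean CPM per kb of exon of each of the 41 genes with vehicle and with trametinib, on a log axis, ordered by the vehicle level. Maf1 is at the top and Polr3g at the bottom, and the distance between the marks is widest for Polr3d and Polr2h.

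Other genes around these enzymes were counted by lists. Of 18 tested genes of ribosomal DNA chromatin and Pol I cofactors, 8 fell and 0 rose (18.4% and 15.8% of all genes tested), with a median log2 fold change of −0.20 against −0.0053 for all genes tested. The count of 0 did not hold in every setting: Baz2a rose with the replicate block (0.0132), and Baz2a (0.0198), Phf8 (0.0454) and Pwp1 (0.00346) rose without vehicle replicate 3. The 4 with the smallest p were Mybbp1a, a nucleolar MYB-binding protein gene, at −1.05 (edgeR adjusted p 0.000268), Top1, DNA topoisomerase I, at −0.60 (0.000683), Nolc1, a nucleolar phosphoprotein gene, at −0.87 (0.000793), and Ddx21, a nucleolar helicase gene, at −0.78 (0.000917). Of 10 other Pol III factors, 3 fell, about 1 gene more than the share of all genes would give, and 0 rose: Snapc4 at −0.80 (0.00871) and Snapc5 at −0.43 (0.0136), both of the complex that serves small nuclear RNA genes, and Ssb at −0.24 (0.0295), which encodes the La protein that binds the ends of Pol III transcripts. Snapc5 lost its call without vehicle replicate 2 (0.0501) and Ssb (up to 0.128) with DESeq2 and on removal of vehicle replicate 1, vehicle replicate 2, trametinib replicate 1 or trametinib replicate 2. In both lists no gene rose in DESeq2 or limma-voom either, and at an unadjusted p under 0.05 in edgeR 1 rose in the first (Baz2a) and 0 in the second.

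Of 16 tested upstream regulators, 1 fell and 3 rose, where 18.4% and 15.8% of all genes tested did. With the replicate block 4 rose, Max being added, where 22.4% of all genes fell and 20.5% rose. Without vehicle replicate 3, 3 fell and 4 rose (Mlx and Myc added lower, Rbl2 higher), where 21.4% and 19.3% of all genes did. Without trametinib replicate 3, 3 fell (Mtor and Rptor added), and the share among all genes was not counted for that fit. Mxd1 and Mxd4, whose products compete with MYC for MAX, rose to 3.02 and 1.71 times the vehicle level (edgeR adjusted p 0.000161 and 0.00942). Rbl1, a retinoblastoma relative, rose by 0.64 on the log2 scale (0.00593), and Trp53, the gene of the p53 tumour suppressor, fell by 0.40 (0.0067). Myc was low, at 1.07, 1.62 and 0.270 CPM with vehicle and at 0.709, 0.107 and 0.334 CPM with trametinib, with overlapping groups, and did not pass (edgeR adjusted p 0.194), while without vehicle replicate 3, where it was lowest among vehicle libraries, the adjusted p was 0.02.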

How the data were processed

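RNA from 3 vehicle and 3 trametinib samples, both with LPS, was measured by sequencing. The deposited table holds raw counts, the whole reads that the authors assigned to each gene of each library. The submitters' processing notes name the build mm10 and the tools HISAT2 2.1.0 and featureCounts 1.6.4, besides R 3.6.0 with DESeq2 1.24.0. Which annotation and strand setting were used, and how multi-mapping reads were counted, is not given in the sources used here, so values of paralogs and of overlapping genes are less certain.

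Of 25354 entries, 310 repeated 1 of 205 identifiers with identical values and were dropped, leaving 25044 genes, of which 25033 have a symbol, position and exon length in GENCODE M21. Genes were filtered with filterByExpr, libraries scaled by TMM, and groups compared in edgeR 4.0.16 with its robust quasi-likelihood F test and group as sole term, with Benjamini-Hochberg adjustment over 11286 genes. The SE was taken as the absolute log2 fold change over the square root of F. The procedure was tested on simulated data that had no pairing of replicates and no outlying library. That test therefore does not cover these traits of the real libraries. R 4.3.3, limma 3.58.1, DESeq2 1.42.0, Python 3.11.15, pandas 2.3.3 and matplotlib 3.10.9 were used.

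Both groups carry replicate numbers 1 to 3 in the labels. Across genes, same-numbered libraries had correlated deviations from their group means (0.339, 0.393 and 0.285), and differently numbered ones had −0.0724 to −0.223. Deviations from a group mean cancel within the group, so the negative values are not separate evidence of a pairing. Same-numbered libraries thus resembled each other, and the labels do not say what the number marks. The main test leaves the number out. Blocked values stand beside results they change. Between replicates of a group the chi-square per gene was 6.26 to 29.8, so none was a copy of another.

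All 41 genes may be named. Values per library are given for genes past the threshold, the highest and lowest of each class and the paralog pairs, and for other genes chosen after their values were seen (Polr1a, Znrd1, Ubtf, Polr3a, Bdp1, Gtf3a, Gtf3c6 and Myc). Of genes outside the 41, the rule names those past the threshold, at most 4 per list. Others (Myc, Baz2a, Polr2a and further genes called in single settings, markers at 0 or moved, the genes of ERK output and the Pol III transcripts) were named outside that rule, after their values were seen. The genes and lists were chosen with earlier results of these data known. Alternatives were other scalings, filters and tests, a replicate block and the removal of each library in turn. 5 transcripts of the ribosomal DNA locus were not analysed here, and 4 genes of the lists outside the 41 are not reported here.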

Additional observations from a re-analysis of the deposited data

How the results depend on the processing

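Of 533 comparisons of a gene with an alternative setting (41 genes, 13 settings), 470 kept their direction and their side of the threshold, 24 lost a call, 13 gained one and 26 turned direction. Of the 28 genes that did not pass, 20 passed in no setting. The like counts over all genes tested were not made. The count of genes higher was 2, all of them in the Pol III class, and was 1 with DESeq2 and 1 to 4 on leaving out 1 library. The count of shared subunits lower was 1 and ran from 1 to 3 on leaving out 1 library, with 3 without vehicle replicate 3. With the replicate block 7 Pol I genes, 5 Pol III genes and 1 shared subunit fell and 3 rose, and Polr1a, Polr3a and Brf1 were the calls it added; it removed none. The hexamer was in 7 promoters and in 2 within 100 bases before the start, a shorter stretch. Direction turned only in 11 genes whose log2 fold change was at most 0.0859 in size. With DESeq2 size factors Znrd1 was at 0.0024 and Polr3f at 0.0057, and with a filter of 1 CPM in 3 libraries at 0.0011 and 0.0042. Leaving out 1 library gave −0.11 to 0.0795 for Znrd1, −0.0975 to 0.00827 for Ubtf, −0.0870 to 0.0417 for Polr3f, −0.12 to 0.0567 for Crcp, −0.12 to 0.0413 for Brf2, −0.13 to 0.14 for Bdp1, −0.17 to 0.0023 for Gtf3c1, −0.0653 to 0.0226 for Gtf3c2, −0.0211 to 0.0498 for Gtf3c3, −0.0352 to 0.0738 for Gtf3c4 and −0.14 to 0.0353 for Polr1d. Where leaving out 1 library leaves 2 in a group, fewer residual degrees of freedom remain; the cause of other shifts was not tested. The 5 genes with the fewest counts (Polr3g, Polr1e, Polr2l, Taf1a and Polr2h, 187 to 387 over the 6 libraries) rest on the least depth, and mRNA levels say nothing of protein amounts, phosphorylation or the output of Pol I and Pol III.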

Other observations

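Transcripts that Pol III makes were partly present in the table, although libraries of this kind recover short RNAs poorly. Of 11 such RNAs looked for, 9 had an entry and 6 of those were at 0 in all 6 libraries. Rn7sk, the 7SK RNA that restrains the elongation factor of Pol II, had 0, 3 and 0 counts with vehicle and 16, 24 and 9 counts with trametinib. Its summed counts of 3 and 49 give a ratio of 16.6, and its 95% interval, 5.35 to 83.1, covers counting error only. It was under the filter on low counts, and in the edgeR fit without that filter its adjusted p was 0.000762. Bc1, a brain cytoplasmic RNA gene, had 57 counts with vehicle and 35 with trametinib and did not pass (edgeR adjusted p 0.196). Rn7s1, a signal recognition particle RNA gene, had 0 and 2 counts.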
